A study of Mus musculus with 30 samples.

Results

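Monocytes sorted from mouse gliomas were compared according to whether they carried green fluorescent membrane taken up from the tumor (GFPpos) or not (GFPneg). The comparison rests on 7 of the 30 RNA-seq libraries of the series. These are 3 GFPneg libraries and 4 GFPpos libraries, and they form 6 replicates from 3 mice, numbered 22, 24 and 26. The GFPpos replicate of mouse 22 was sequenced as 2 libraries, and their counts were added together. Members were taken by sample title alone, and each mouse gave both populations, so every GFPpos replicate has a GFPneg partner from the same brain.

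The tumor was GL261.BpalmGFP, a single mouse glioma line that carries a palmitoylated GFP in its membranes and was implanted into the striatum. The hosts were C57BL6.CCR2RFP/WT mice, 12 to 18 weeks old, in which 1 copy of Ccr2 is replaced by a red fluorescent reporter. All replicates of both groups carry this tumor and this genotype. Monocytes were sorted after enzymatic dissociation as CD11bhigh CD45high cells with F4/80 and high Ly6C, and only the GFP signal separates the groups. The gate reads protein, and GFP marks uptake of membrane but not its amount, its time or its route.

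Ly6C-high monocytes are short-lived blood cells that follow CCR2 signals into inflamed tissue. There they lose Ly6C and CCR2 and gain macrophage genes such as those of complement C1q, scavenger receptors and lysosomal enzymes. Gliomas draw in many such cells, and uptake of tumor membrane brings tumor material into these immune cells. The data were read for the genes of that path, for the interferon and innate sensing programs of monocytes, and for the machinery of uptake and growth.

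Library quality differed between the groups. Counts on genes ranged from 1683203 to 2154652 in GFPneg and from 1553616 to 5689644 in the summed GFPpos replicates. Spike-in RNA (ERCC, added before reverse transcription) took 0.319% to 0.742% of the counts in GFPneg, against 3.59%, 5.16% and 0.612% in GFPpos of mouse 22, 24 and 26. The share of mitochondrially encoded counts was 0.677% to 0.929% in GFPneg and 1.03% to 1.32% in GFPpos, so the groups did not overlap. The first library of GFPpos mouse 22 stood apart: 6969 genes reached 5 reads there, against 11777 in its second library, and its rank correlation with that second library was 0.599. Between mice within a population the rank correlation was 0.784 to 0.906. Its libraries disagreed on the direction in that mouse, taken against GFPneg mouse 22, for Cnpy2, Hpcal1, Rara, Rcn3, Hebp2, Cadm1, Cd9, Gpnmb, Fcgrt, Fcgr1, H2-K1, Cx3cr1, Cd47, Itga9, Spi1, Tk1 and Adgre1 among the genes named here. For the lists with the clearest directions the counts are also given for its second library alone.

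The genes of the sort were present in all 6 replicates. Ly6c2, the Ly6C antigen itself, stood at 3582, 3712 and 2848 CPM (counts scaled to library size by TMM) in GFPneg of mouse 22, 24 and 26, and at 3166, 1578 and 1181 CPM in GFPpos. The GFPpos level was lower in each mouse, but the groups overlapped, since GFPpos mouse 22 lay above GFPneg mouse 26. The level in GFPneg macrophages of the same gliomas averaged 201 CPM (CCR2high) and 126 CPM (CCR2low), far below either monocyte group. Ptprc, which encodes CD45, was 965 to 1081 CPM in GFPneg and 496 to 850 CPM in GFPpos, without overlap. Adgre1 (F4/80) and Itgam (CD11b) did not keep 1 direction across the mice. Sex-linked transcripts matched within every pair: Xist was detected in both replicates of mouse 26 and in neither of the other mice.

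Against this background the first question was how many genes separated GFPpos from GFPneg monocytes. With edgeR's quasi-likelihood test and Benjamini-Hochberg adjustment, 0 of 11566 genes passed an adjusted p of 0.05 (0%), and the smallest adjusted p was 0.166. At an unadjusted p below 0.05, 346 genes were higher in GFPpos (2.99%) and 394 were lower (3.41%), 740 in all. With the mouse as a block the count remained 0, with a smallest adjusted p of 0.0749. DESeq2 called 19 of the 5730 genes it kept (0.332%), 8 higher and 11 lower. Leaving out GFPpos mouse 26 gave 1 call by edgeR, Cdc14a, which was lower. No gene is therefore described below as changed by the edgeR test, and values are given with their spread.

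Direction within the mice gives a second view. In all 3 pairs 1851 genes were higher in GFPpos (16%) and 2054 were lower (17.8%). For 708 genes (6.12%) every GFPpos replicate lay above every GFPneg replicate, and for 862 genes (7.45%) every one lay below. These shares are the background for each gene list below. All such directions are relative to the typical gene of a library. Scaled to the spike-ins instead, the median difference of all genes was -2.47, -2.59 and -0.68 log2 units in mouse 22, 24 and 26, and only 34 genes were higher in all pairs. The study set the RNA input to reverse transcription by mass, so the spike-in share gives neither cell number nor RNA per cell, and fewer cells of a type and less RNA per cell cannot be told apart. List counts under spike-in scaling are given relative to that shift, which makes them a re-centred form of the same values and no separate evidence of direction.

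**Figure D1:**
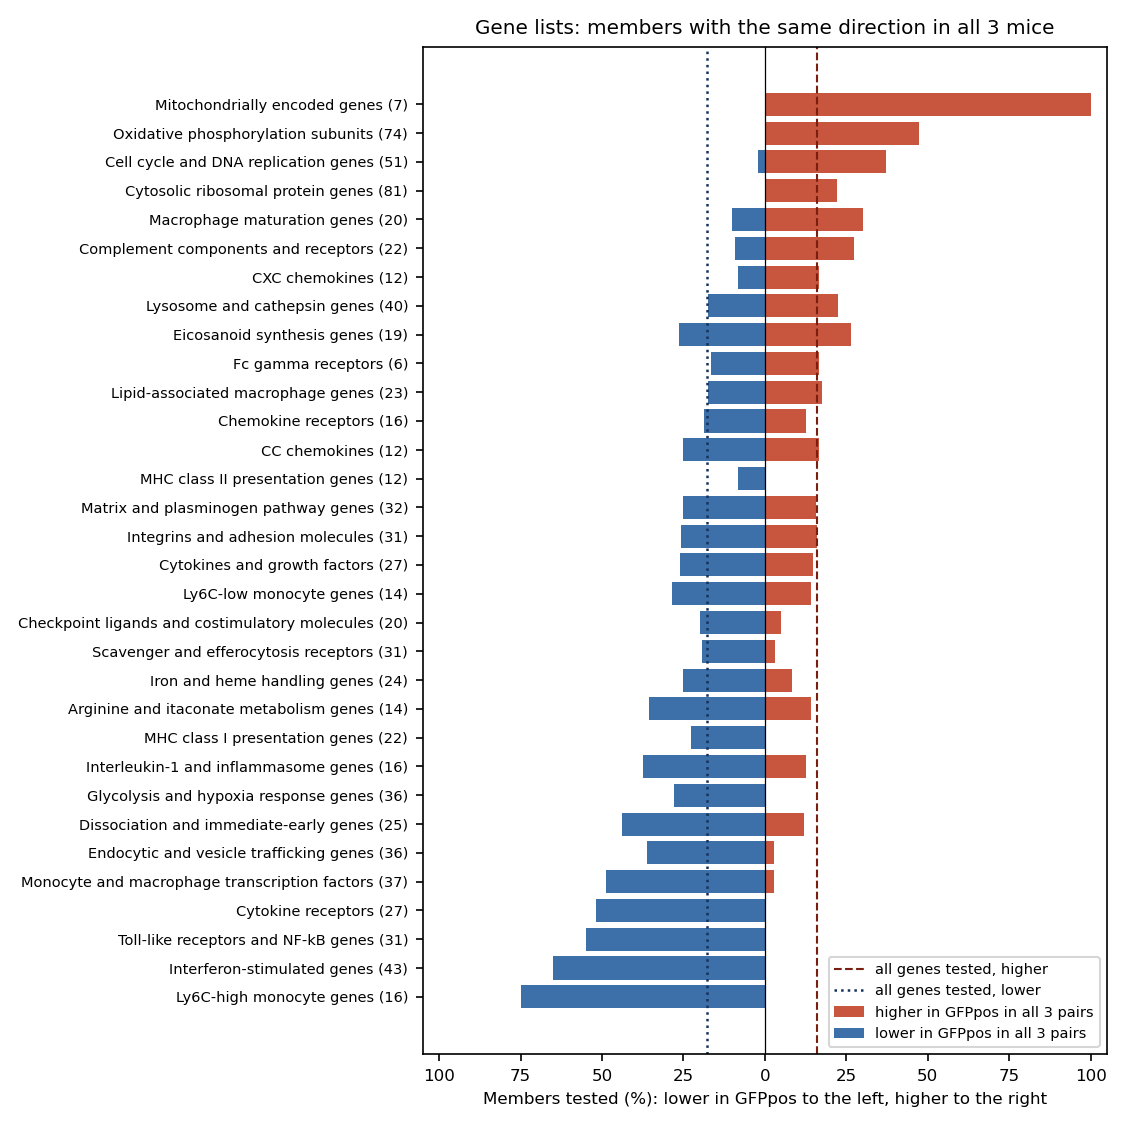
Share of the tested members of the lists of cell state, gene family and RNA quality that were higher (right, red) or lower (left, blue) in GFPpos than GFPneg monocytes in all 3 mice, with the number of tested members in brackets and the share of all 11566 genes as vertical lines. Ly6C-high monocyte genes (75% lower) and interferon-stimulated genes (65.1% lower) lie furthest to the left, and mitochondrially encoded genes and oxidative phosphorylation subunits furthest to the right.

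The genes that DESeq2 called are of mixed function, and their replicates did not overlap. Slc29a1, which encodes the nucleoside transporter ENT1, measured 38.04, 50.2 and 49.5 CPM in GFPneg and 92.9, 141 and 145 CPM in GFPpos. Every GFPpos replicate of the 3 mice was higher, at 2.74-fold (log2 fold change 1.46 ± 0.27 SE of the edgeR fit). The adjusted p was 0.000734 by DESeq2 and 0.166 by edgeR. Its first and second library of mouse 22 read 38.7 and 104 CPM, so the step in that mouse rests on the second. The gene lies on chromosome 17 (GRCm38, from 45585200 to 45599606, minus strand). Pold2, a DNA polymerase delta subunit, averaged 34.6 ± 15.5 CPM (SD, n = 3) in GFPneg and 97.8 ± 5.96 CPM in GFPpos. Ybx1, a cold shock RNA-binding protein, averaged 53.7 ± 8.47 and 131 ± 19.1 CPM, and the RNA polymerase III subunit Polr3k 55.2 ± 17.3 and 132 ± 18.1 CPM. The mouse 22 libraries of Ybx1 read 221 and 87.2 CPM, both above GFPneg. The chaperonin subunit Cct3, the proteasome assembly factor Psmg2 and Cnpy2 made up the rest of the higher genes beside Cd63, with edgeR folds of 1.62, 1.88 and 1.8, although Cnpy2 read 9.53 CPM in the first library of mouse 22.

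Hif1a, the oxygen-regulated transcription factor, and 10 further genes were lower by DESeq2. Hif1a measured 944, 736 and 964 CPM in GFPneg and 187, 153 and 443 CPM in GFPpos, so that every GFPpos replicate was lower. The edgeR log2 fold change was -1.75 ± 0.43 (SE), with an adjusted p of 0.457, and the DESeq2 adjusted p was 0.0437. Samd9l, an interferon-induced restriction factor, measured 163, 156 and 196 CPM in GFPneg and 67.1, 53.7 and 49.2 CPM in GFPpos. The syntaxin Stx11 had the largest fold of the lower genes, 4.78 by edgeR, but its first and second libraries of mouse 22 disagreed, at 43.5 and 2.90 CPM. The others were the phosphatase Ptpn1, the kinase Map2k4, the retinoic acid receptor Rara, the CREB coactivator Crtc2, the lipase Lipe, Rap2c, Hpcal1 and Tpd52, with edgeR folds of 1.86 (Tpd52) to 3.53 (Lipe). The mouse 22 libraries read 215 and 31.9 CPM for Hpcal1 and 69.1 and 25.6 CPM for Rara, and the first lies above GFPneg mouse 22 for both (149 and 58.1 CPM). They read 578 and 129 CPM for Ptpn1, 52.4 and 8.43 CPM for Crtc2 and 21.4 and 109 CPM for Rap2c, all below GFPneg mouse 22. None of these 19 passed edgeR's adjusted threshold.

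Monocyte identity genes pointed one way. Of 16 genes typical of Ly6C-high monocytes, 12 were lower in GFPpos in all 3 mice and 0 were higher, and 7 of the 12 had groups that did not overlap. The median log2 fold change of the list was -1.06, against 0.05 over all genes tested. With the second library of mouse 22 alone the count was again 12 of 16. By mouse, the median difference was -0.67, -1.25 and -1.29 log2 units. No member was called, and 6 of the 16 had an unadjusted p below 0.05, all lower.

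Ccr2, the chemokine receptor that brings monocytes into tissue, was lower in every pair. It measured 822, 580 and 950 CPM in GFPneg of mouse 22, 24 and 26, and 349, 228 and 265 CPM in GFPpos. The groups did not overlap, and the fold was 2.79 (log2 fold change -1.48 ± 0.48 SE, edgeR adjusted p = 0.628). In GFPneg macrophages of the same gliomas the mean was 248 CPM in the CCR2high and 72.7 CPM in the CCR2low population. The GFPpos monocyte mean of 281 CPM thus lay closer to CCR2high macrophages than to GFPneg monocytes, whose mean was 784 CPM.

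Other members of the list behaved alike. F13a1, the coagulation factor XIII A chain of monocytes, measured 411, 507 and 1620 CPM in GFPneg and 113, 74.1 and 425 CPM in GFPpos. Mouse 26 was highest in both populations, and the pair differences were -1.86, -2.76 and -1.93 log2 units, although the groups overlapped. Emilin2, a matrix glycoprotein, measured 319, 276 and 470 CPM against 67.9, 80.9 and 187 CPM, without overlap. Gda, guanine deaminase, measured 131, 141 and 172 CPM against 43.6, 40.8 and 76.5 CPM, also without overlap. Hp, haptoglobin, averaged 466 ± 87.3 CPM (SD, n = 3) in GFPneg and 187 ± 87.1 CPM in GFPpos. The chitinase-like Chil3 averaged 787 ± 667 and 319 ± 194 CPM, lower in each mouse with overlapping groups.

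**Figure D2:**
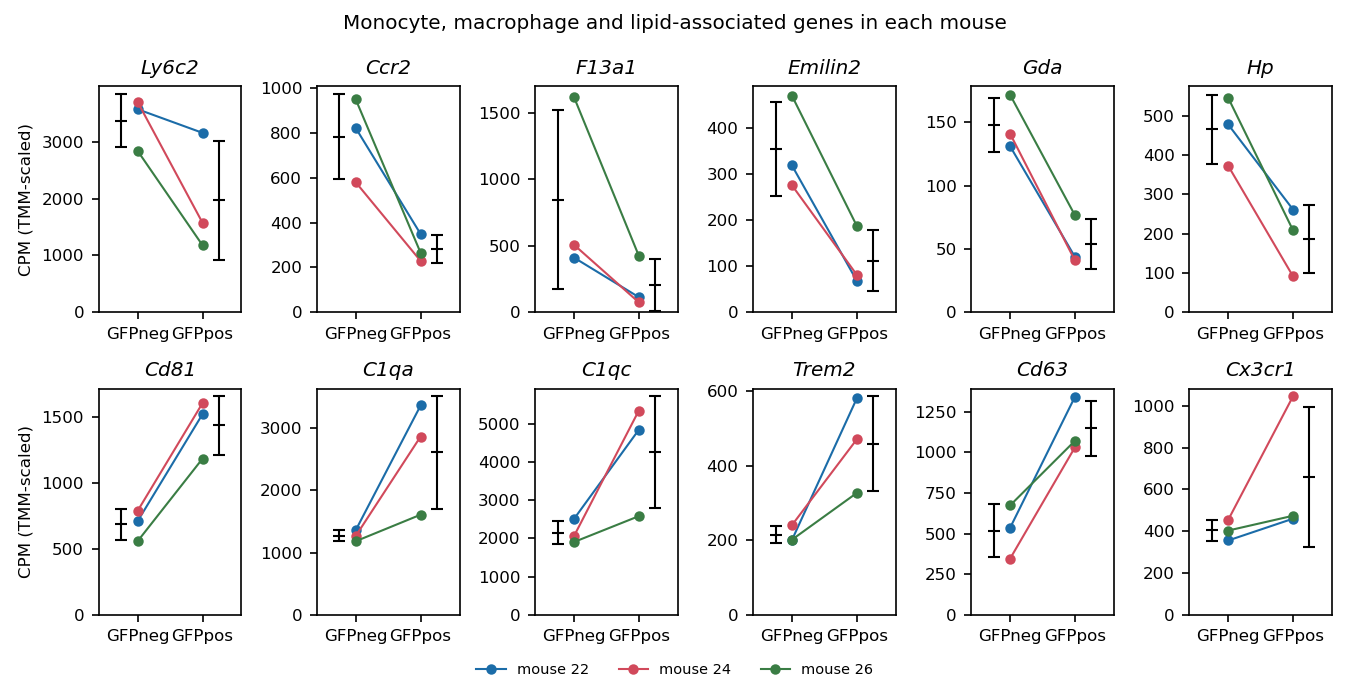
Level (CPM, scaled by TMM, linear axis from 0) of 12 genes in GFPneg and GFPpos glioma monocytes, with 1 line per mouse and the mean ± SD (n = 3) in black beside the points. The upper row of monocyte genes slopes down in every mouse and the lower row of macrophage and lipid-associated genes slopes up, while Ly6c2, F13a1 and Cx3cr1 show how far mice differ.

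Genes of macrophage maturation were more mixed. Of 20, 6 were higher in GFPpos in all mice and 2 were lower, 5 of the higher ones without overlap, and the median log2 fold change was 0.37. The medians by mouse were 0.74, 0.88 and -0.0016, so mouse 26 did not share in it. With the second library of mouse 22 alone, 8 were higher and 1 was lower. Cd81, a tetraspanin, was the steadiest: 710, 788 and 558 CPM in GFPneg and 1522, 1606 and 1185 CPM in GFPpos. The pair differences were 1.10, 1.03 and 1.08 log2 units, an almost equal step in each mouse (edgeR adjusted p = 0.693). C1qa and C1qc, which encode chains of complement C1q, averaged 1270 ± 88.8 and 2154 ± 313 CPM in GFPneg against 2614 ± 905 and 4257 ± 1471 CPM in GFPpos, without overlap. Cadm1, a cell adhesion molecule, averaged 26.9 ± 7.78 and 53.5 ± 10.5 CPM, but its mouse 22 libraries read 108 and 22.1 CPM.

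Not all macrophage genes followed. Fcgr1, which encodes the high-affinity IgG receptor CD64, was lower in all pairs, at 774, 795 and 825 CPM in GFPneg and 749, 483 and 497 CPM in GFPpos. The iron exporter Slc40a1 was also lower in all pairs, with overlapping groups. Genes of Ly6C-low patrolling monocytes split as well, with 2 of 14 higher and 4 lower in all pairs. Nr4a1, the nuclear receptor on which patrolling monocytes depend, had pair differences of -0.99, -1.14 and -1.23 log2 units, and Adgre4 averaged 44.1 ± 27.1 and 10.3 ± 4.84 CPM. Cx3cr1, the fractalkine receptor, was 356 to 454 CPM in GFPneg and 460 to 1046 CPM in GFPpos, and its highest value came from mouse 24, while the first library of mouse 22 alone read 252 CPM.

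Interferon-stimulated genes, which cells switch on in response to interferons, leaned lower. Of 43 tested, 28 were lower in GFPpos in all 3 mice (65.1%) and 0 were higher, against 17.8% and 16% of all genes. For 11 the groups did not overlap. The median differences were -0.21, -0.79 and -0.84 log2 units in mouse 22, 24 and 26. The second library of mouse 22 alone gave 28 of 43 as well. No member passed edgeR's adjusted threshold, and 7 had an unadjusted p below 0.05, all lower.

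Many of these genes share a short promoter element, GAAANNGAAA, the core of the interferon-stimulated response element. It was searched on both strands (TTTCNNTTTC on the other) in RefSeq promoter windows around gene starts on GRCm38.p6. It was found in 22 of the 36 members of the list that had a window (61.1%), and in 3.99% of all 27025 promoters. Among members lower in all pairs the share was 65.2% (15 of 23), and among the other members 53.8% (7 of 13). The sequences below are the windows around the element for the 3 members that hold it with the largest smallest pair difference, with the element in capitals.

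Rsad2, chr12:26456523-26456612, minus strand: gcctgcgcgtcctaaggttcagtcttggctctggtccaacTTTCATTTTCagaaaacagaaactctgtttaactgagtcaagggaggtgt

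Gbp5, chr3:142496729-142496818, plus strand: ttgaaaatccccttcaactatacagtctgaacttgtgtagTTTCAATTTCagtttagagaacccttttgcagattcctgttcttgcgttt

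Slfn5, chr11:82951907-82951996, plus strand: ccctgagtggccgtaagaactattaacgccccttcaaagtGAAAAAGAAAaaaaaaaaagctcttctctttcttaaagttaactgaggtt

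Each window lies before the RefSeq start of its gene, and the element begins at position -120, -165 and -155 relative to that start. The element describes the list and was not measured in these samples. Rsad2, the antiviral protein viperin, measured 708, 1219 and 1230 CPM in GFPneg and 341, 222 and 552 CPM in GFPpos. Every GFPpos replicate was lower, by 2.83-fold (log2 fold change -1.50 ± 0.71 SE, edgeR adjusted p = 0.761). Gbp5, an interferon-induced GTPase of cell-autonomous defense, averaged 229 ± 94.7 and 123 ± 51 CPM, lower in each mouse with overlap. Slfn5, a schlafen protein, measured 406, 387 and 529 CPM against 112, 229 and 136 CPM, without overlap.

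Ifit2, which binds RNA in the antiviral response, kept nearly the same step in all mice. It measured 1130, 1212 and 832 CPM in GFPneg and 479, 477 and 299 CPM in GFPpos, a difference of -1.24, -1.34 and -1.48 log2 units. Cmpk2, a mitochondrial nucleotide kinase encoded next to Rsad2 on chromosome 12, measured 254, 401 and 322 CPM against 17.2, 48.3 and 166 CPM. Both genes had groups that did not overlap, with edgeR adjusted p of 0.765 for Ifit2 and 0.715 for Cmpk2.

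**Figure D3:**
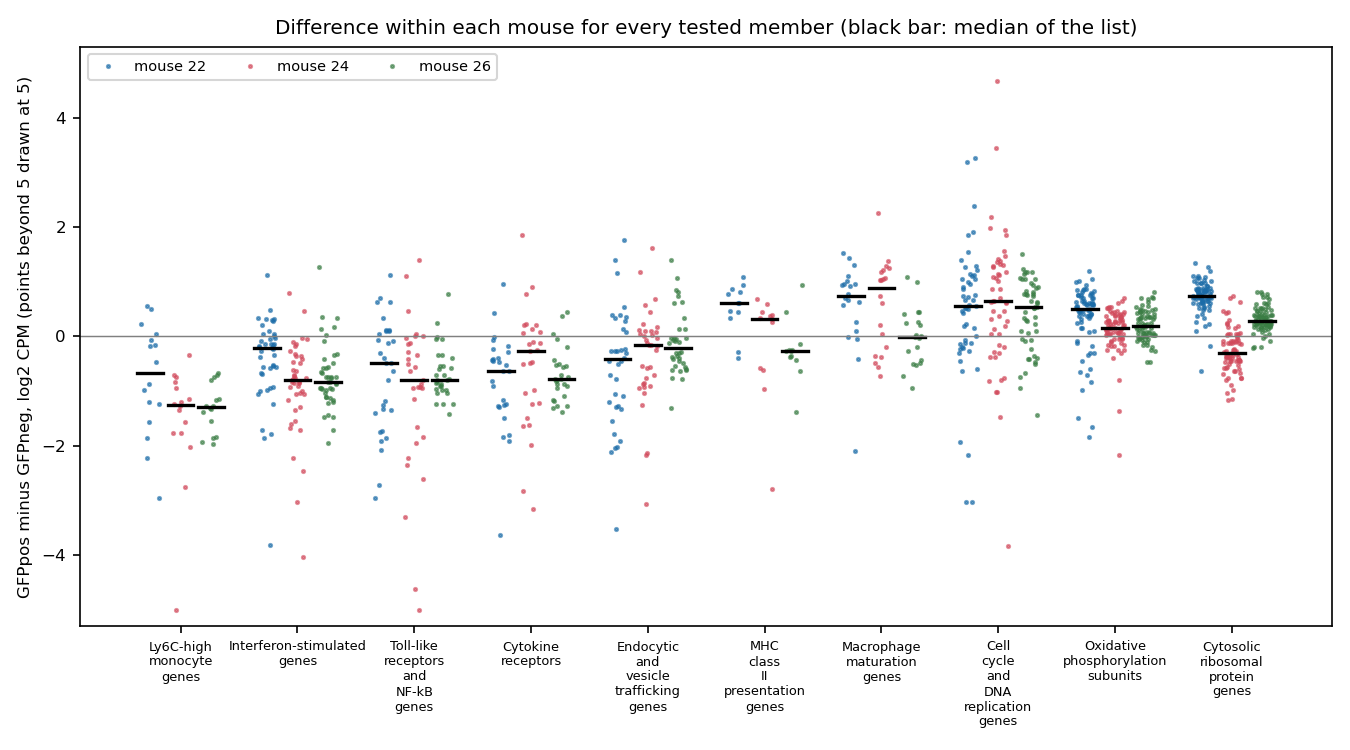
Difference GFPpos minus GFPneg in log2 CPM within mouse 22 (blue), 24 (red) and 26 (green) for every tested member of 10 lists, each point 1 gene and each black bar the median of the list in that mouse. The bars of Ly6C-high monocyte, interferon-stimulated, Toll-like receptor and cytokine receptor genes lie below 0 in all mice, those of cell cycle and oxidative phosphorylation genes lie above 0, and ribosomal protein genes lie below 0 in mouse 24 alone.

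Innate sensing genes leaned the same way. Of 31 genes of Toll-like receptors and NF-kB signaling, 17 were lower in all pairs, 5 of them without overlap, and 0 were higher, with a median log2 fold change of -0.71. The second library of mouse 22 alone also gave 17. Traf6, the ubiquitin ligase that links these receptors to NF-kB, measured 117, 109 and 146 CPM in GFPneg and 14.4, 57.1 and 61.9 CPM in GFPpos, without overlap. Tlr8 and Tlr5, receptors for RNA and flagellin, were lower in each mouse with overlapping groups. The inhibitor Nfkbib averaged 188 ± 76.9 and 87 ± 49.3 CPM, and its mouse 22 libraries read 112 and 11.3 CPM.

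Cytokine receptors had many members without overlap. Of 27, 14 were lower in all pairs and 12 did not overlap, against 7.45% of all genes, with 0 higher. Tnfrsf1a and Tnfrsf1b, the receptors of TNF, averaged 446 ± 80.8 and 962 ± 118 CPM in GFPneg against 227 ± 60.5 and 460 ± 145 CPM in GFPpos. For Tnfrsf1a the edgeR log2 fold change was -0.98 ± 0.25 (SE) with an adjusted p of 0.457. Il17ra averaged 101.3 ± 7.13 and 36.8 ± 23.9 CPM, and Il6ra 29.5 ± 13.5 and 9.08 ± 2.83 CPM. With the second library of mouse 22 alone, 12 of the 27 were lower in all pairs.

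Transcription factors of monocytes and macrophages had 18 of 37 members lower in all pairs and 1 higher, and 17 and 2 with the second library of mouse 22 alone. Spi1, which encodes PU.1, the master factor of the myeloid lineage, measured 909, 1003 and 565 CPM in GFPneg and 337, 147 and 373 CPM in GFPpos. Its mouse 22 libraries read 912 and 34.0 CPM, so that its value in that mouse depends on which library is read. Egr2 had pair differences of -0.95, -0.78 and -0.66 log2 units, and Nr4a2 of -2.63, -3.68 and -1.81.

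Of 25 immediate-early and heat shock genes that cell dissociation switches on, 11 were lower in all pairs (44%) and 3 were higher (12%). The other 11 were mixed, and among all genes 17.8% were lower and 16% higher. Hspa1a and Hspa1b, heat shock proteins of the HSP70 family, averaged 101.4 ± 62.9 and 80.3 ± 80 CPM in GFPneg against 26.9 ± 16.8 and 21 ± 23.9 CPM in GFPpos. These near-identical copies share reads, so their separate levels are uncertain. Junb, an AP-1 factor, averaged 3483 ± 664 and 1668 ± 956 CPM, with 1734 and 33.5 CPM in the mouse 22 libraries. The mitochondrial chaperonin Hspe1 went the other way, from 78.2 ± 22.7 to 151 ± 39.9 CPM without overlap. Both groups passed through the same dissociation, and its part in the other differences was not tested.

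Since GFP marks uptake, genes of uptake and digestion were read next. Endocytic and vesicle trafficking genes did not lie higher in GFPpos: 13 of 36 were lower in all pairs (36.1%), 1 was higher, and the median log2 fold change was -0.28. Rab7, the GTPase of late endosomes, measured 615, 547 and 560 CPM in GFPneg and 522, 460 and 379 CPM in GFPpos, without overlap, but the second library of mouse 22 alone read 575 CPM. Rab5c and Rab5b, of early endosomes, and Anxa2, an annexin of membrane traffic, were lower in each pair with overlapping groups. Of 31 scavenger and efferocytosis receptors, 6 were lower in all pairs and 1 was higher, with a median of -0.09. Scarf1, a scavenger receptor, averaged 51.1 ± 10.7 and 28.9 ± 8.5 CPM, without overlap, while Elmo1 and Dock1, which move actin during engulfment, overlapped.

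Lysosomal genes were divided, 9 of 40 higher and 7 lower in all pairs, close to the background shares. Cd63, a tetraspanin of late endosomes, lysosomes and exosomes, stood at the head of the higher members and was among the DESeq2 calls. It measured 535, 345 and 673 CPM in GFPneg and 1341, 1031 and 1071 CPM in GFPpos. Every GFPpos replicate was higher, by 2.22-fold (log2 fold change 1.15 ± 0.38 SE), with an adjusted p of 0.00322 by DESeq2 and 0.628 by edgeR. Both libraries of mouse 22 showed it, at 1423 and 1113 CPM. GFPneg macrophages of the same gliomas averaged 950 CPM (CCR2high) and 1150 CPM (CCR2low). The pseudogene Cd63-ps, at 1.12 ± 0.527 and 11.8 ± 2.13 CPM, resembles Cd63 in sequence, and reads of the gene may have been counted there. Glb1 (beta-galactosidase) and Lamp1, a lysosomal membrane protein, were higher in all pairs, and the proton pump subunit Atp6v1b2 was lower, at 528 ± 16.3 against 266 ± 139 CPM.

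Genes of lipid-associated macrophages were higher for 4 of 23 members and lower for 4 in all pairs, close to the background shares. Trem2, the lipid-sensing receptor of these cells, measured 200, 240 and 201 CPM in GFPneg and 580, 470 and 327 CPM in GFPpos. The groups did not overlap, the fold was 2.15, and the edgeR adjusted p was 0.628. The tetraspanin Cd9 averaged 568 ± 19.1 and 859 ± 84.9 CPM, without overlap in the summed replicates, but the first library of mouse 22 read 501 CPM. Gpnmb, a glycoprotein of lipid-loaded phagocytes, was higher within each mouse but spread from 247 to 1586 CPM within GFPneg.

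Antigen presentation gave no steady difference. Of 12 MHC class II genes, 0 were higher and 1 was lower in all pairs, namely Ciita, their master regulator, at 141 ± 35.4 and 91.3 ± 46.8 CPM. The class II medians were 0.61, 0.32 and -0.27 log2 units by mouse. Among 22 class I genes 5 were lower and 0 higher in all pairs, including H2-K1, H2-D1, Tap1 and Tapbp. The mouse 22 libraries of H2-K1 read 5687 and 1332 CPM, and the first lies above GFPneg mouse 22 at 5415 CPM. H2-D1, a classical class I heavy chain, averaged 8625 ± 1608 and 5910 ± 3017 CPM, and the mouse 22 libraries read 6890 and 1357 CPM. Genes of this family are close copies, and reads may be split between them. Among 6 Fc receptor genes, Fcgrt, which encodes the neonatal Fc receptor, was higher at 104 ± 7.39 against 175 ± 34 CPM without overlap, although the first library of mouse 22 read 47.6 CPM.

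The lists of chemokines, their receptors and cytokines had members in both directions. In all pairs 8.33% to 25.9% of a list were lower and 12.5% to 16.7% higher. Among all genes 17.8% were lower and 16% higher, so these counts are not read as a difference of the families. Of 12 CC chemokines, 2 were higher and 3 lower in all pairs. Ccl12 and Ccl8, monocyte chemoattractants of the CCL2 family, averaged 236 ± 73.4 and 62.7 ± 40.4 CPM in GFPneg and 455 ± 144 and 173 ± 26.9 CPM in GFPpos, both without overlap. Ccl9 and Ccl6, myeloid chemokines of a different branch, were lower in each pair with overlap. CXC chemokines had 2 of 12 higher and 1 lower in all pairs, and chemokine receptors 2 of 16 higher and 3 lower, the lower ones being Ccr1, Ccr2 and Ccrl2. Osm, which encodes oncostatin M, a cytokine of the interleukin-6 family, measured 1578, 2616 and 1528 CPM in GFPneg and 477, 1066 and 782 CPM in GFPpos, without overlap. Of all 27 cytokine and growth factor genes, 7 were lower and 4 higher in all pairs.

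Inflammasome, arginine and checkpoint lists were mixed, against 17.8% of all genes lower and 16% higher in all pairs. Interleukin-1 and inflammasome genes had 6 of 16 lower and 2 higher in all pairs, with Mefv, the pyrin gene, at 64 ± 4.94 and 29.1 ± 11.9 CPM. Arginine and itaconate genes had 5 of 14 lower and 2 higher, with medians of -0.02, 0.10 and -0.74 log2 units by mouse. Cd47, the signal that restrains phagocytosis, averaged 610 ± 161 and 273 ± 52.4 CPM, and Cd274, which encodes PD-L1, 400 ± 52.5 and 213 ± 25 CPM, both without overlap. The list of 20 checkpoint and costimulatory genes had 4 lower and 1 higher in all pairs, a lower share of 20% that is near the background. The first library of mouse 22 read 613 CPM for Cd47 and the second 93.02 CPM.

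Metabolic and tissue genes completed the account of families, beside 17.8% of all genes lower and 16% higher in all pairs. Glycolysis and hypoxia genes had 10 of 36 lower and 0 higher in all pairs, with Slc16a3, the lactate exporter MCT4, at pair differences of -1.11, -1.59 and -0.84 log2 units beside Hif1a. Iron and heme genes had 6 of 24 lower and 2 higher, and eicosanoid synthesis genes 5 of 19 in each direction. Matrix and plasminogen genes had 8 of 32 lower and 5 higher. Thbs1, thrombospondin 1, measured 600, 286 and 7185 CPM in GFPneg and 109, 122 and 1644 CPM in GFPpos, lower in each mouse, with mouse 26 far above the others in both groups. Its edgeR log2 fold change was -2.11, and 0.52 without GFPneg mouse 26. Among 31 integrins and adhesion molecules, 8 were lower and 5 higher in all pairs, 6 and 5 of them without overlap. Itgb7, an integrin beta chain, measured 416, 467 and 318 CPM against 119, 88.4 and 143 CPM, while Itga6 and Itga9 were higher at low levels.

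Of 51 genes of the cell cycle and DNA replication, 19 were higher in GFPpos in all mice (37.3%) 1 was lower and 31 were mixed, with a median log2 fold change of 0.54 and medians of 0.56, 0.65 and 0.54 log2 units by mouse. Gins2, a subunit of the replicative helicase, measured 11.8, 8.45 and 11.6 CPM in GFPneg and 46.6, 40.8 and 25.1 CPM in GFPpos, without overlap. Tk1, thymidine kinase, averaged 15.2 ± 2.84 and 36.3 ± 8.66 CPM, also without overlap. Cdk1, the mitotic kinase, measured 25.2, 8.98 and 72.7 CPM in GFPneg and 67.7, 25.2 and 165 CPM in GFPpos, a step of 1.18 to 1.42 log2 units within each mouse on top of a large difference between mice. The second library of mouse 22 alone gave 20 of 51 higher, and its first library alone gave 10, with a median of -0.16 log2 units in that mouse.

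Genes of energy production and protein synthesis were read as well. Of 74 nuclear-encoded subunits of oxidative phosphorylation, 35 were higher in all pairs (47.3%) and 0 lower, with a median log2 fold change of 0.31. Ndufa5 and Ndufa12, subunits of complex I, averaged 65.9 ± 14.1 and 82.6 ± 13.1 CPM in GFPneg against 121 ± 53.8 and 142 ± 41.9 CPM in GFPpos. All 7 mitochondrially encoded genes tested were higher in all pairs, 3 without overlap. mt-Nd1 measured 595, 822 and 578 CPM in GFPneg and 1923, 1328 and 870 CPM in GFPpos. Of 81 cytosolic ribosomal protein genes, 18 were higher and 0 lower in all pairs, but their median was -0.30 log2 units in mouse 24 against 0.74 and 0.29 in mouse 22 and 26. Under spike-in scaling the oxidative phosphorylation count was 25 and the ribosomal count 11, relative to the shift of all genes.

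Transcript length moved with these directions. Of the 2227 genes with the shortest transcripts (71 to 1916 bases), 23.9% were higher in all pairs and 10.7% lower. Of the 2227 with the longest (from 5164 bases), 10.2% were higher and 22.9% lower. The median length was 1059 bases for ribosomal protein genes, 1094 bases for oxidative phosphorylation subunits and 3331 bases over all genes. In all pairs 22.2% of the ribosomal protein genes and 47.3% of the oxidative phosphorylation subunits were higher. Cell cycle genes had a median of 3334 bases, Ly6C-high monocyte genes 2160 and interferon-stimulated genes 2940. The part of length and of the higher spike-in and mitochondrial shares of GFPpos in these lists was not tested.

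**Figure D4:**
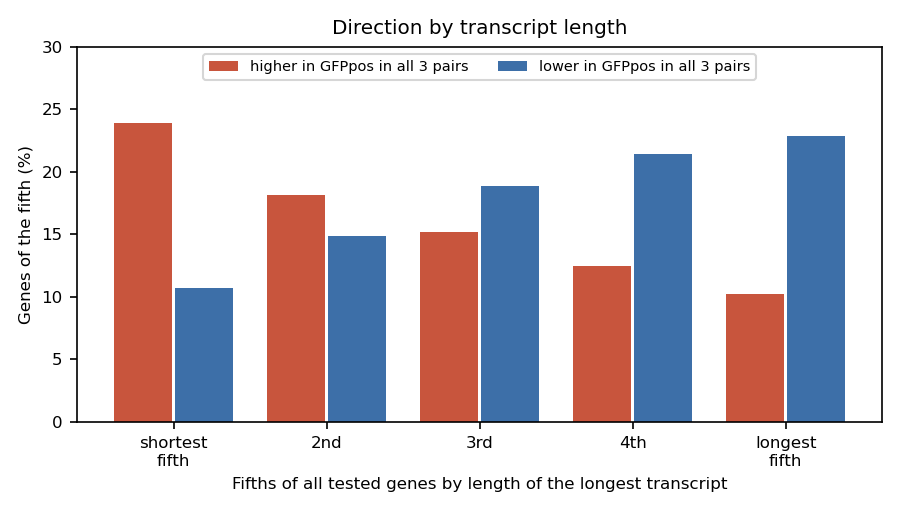
Share of genes higher (red) or lower (blue) in GFPpos in all 3 mice, for the 11132 tested genes with an annotated transcript, in 5 equal classes by length of the longest transcript. The share of higher genes goes from 23.9% in the shortest class to 10.2% in the longest, and the share of lower genes from 10.7% to 22.9%.

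Genes with the largest steps in every pair were mostly of low level. On the lower side, Clock, the circadian factor, averaged 17 ± 9.2 CPM in GFPneg and 1.96 ± 1.84 CPM in GFPpos, and Papss2, which makes the sulfate donor PAPS, 37.8 ± 16.3 and 8.76 ± 4.17 CPM. Kdr, Sgms2, Lcmt2 and Fut4 were likewise lower without overlap, and Nfe2 with overlap. On the higher side, Cdc7, the kinase that fires replication origins, averaged 1.17 ± 1.03 and 12.9 ± 6.54 CPM, and Acvr1, an activin and BMP receptor, 1.16 ± 1.02 and 11.7 ± 11.4 CPM. Nxf3, Ankrd24, Cryz, Afp, Tbc1d19 and Hebp2 were also higher without overlap, and Rcn3 and Tanc2 with overlap. At such levels a few cDNA molecules can set a replicate's value.

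A pair of immunoglobulin segments had the most extreme values. Igkv5-48, a kappa variable segment, measured 8.74, 0 and 0 CPM in GFPneg and 255, 119 and 279 CPM in GFPpos. Ighv1-39, a heavy variable segment, went the opposite way, from 11.8, 11.6 and 58.5 CPM to 0 in each GFPpos replicate. Segments of these families are near copies, so reads may be split between them. The markers of B and plasma cells overlapped between the groups as a list. Their summed level was 2577 to 4743 CPM in GFPneg and 1962 to 3443 CPM in GFPpos, with 1 of 11 higher and 2 lower in all pairs, and all 6 replicates held Igkc.

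Markers of other cells were read for the same reason. Homeostatic microglia, the resident macrophages of the brain, share CD11b with monocytes and carry less CD45. All 12 of their markers were detected in all 6 replicates, and 6 of them were higher in GFPpos in all pairs, 3 without overlap. Their summed level was 2455 to 3881 CPM in GFPneg and 3742 to 5012 CPM in GFPpos, so the groups overlapped slightly. Tmem119 measured 297, 568 and 372 CPM in GFPneg and 628, 933 and 525 CPM in GFPpos, and P2ry12 269, 676 and 150 CPM against 400, 590 and 196 CPM. Under spike-in scaling 2 of the 12 were higher in all pairs. Their part in the higher levels of C1qa, C1qc, Trem2 and Cd81, which microglia also express, was not tested.

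The summed markers of most other cell types overlapped between the groups. Neutrophil markers summed to 376 to 2252 CPM in GFPneg and 294 to 3205 CPM in GFPpos, and in both groups mouse 24 was highest for S100a8, at 486 and 538 CPM. T and NK cell markers had 0 of 18 higher and 1 lower in all pairs, since the mice went opposite ways. Their medians were 0.60, 0.39 and -0.51 log2 units in mouse 22, 24 and 26. In mouse 26, 100% of them were lower, and likewise 100% of the 12 tested neutrophil markers, whose medians were -0.19, -0.12 and -0.90. Dendritic cell markers had 1 of 12 higher and 2 lower in all pairs, and endothelial markers 1 of 10 in each direction. Erythroid markers stood at 36.1 to 126 CPM in sum. Neuron markers were nearly absent, at 0 to 54.99 CPM in sum, and astrocyte markers summed to 87.1 to 205 CPM in GFPneg and 128 to 330 CPM in GFPpos. Oligodendrocyte markers summed to 462 to 505 and 490 to 765 CPM, most of it Cnp. Of 19 tested glioma and neural progenitor markers, 3 were higher and 1 lower in all pairs. Their median log2 fold change was 0.87, with medians of 0, 0 and 0.95 log2 units in mouse 22, 24 and 26. The sum over the list was 1444 to 1605 CPM in GFPneg and 1052 to 1958 CPM in GFPpos. Vim gave the largest part of it, so the sum says little of the other members. In all 4 macrophage pairs, 0 were higher and 1 lower in CCR2high cells, and 7 and 1 in CCR2low cells. Whether tumor material contributed was not tested. Sox9 was at 0 in all 6 replicates.

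GFP also separated the macrophages of the same gliomas, sorted as CCR2high and CCR2low with 4 mice each, and the monocyte differences were set against theirs. In CCR2high macrophages 714 genes were higher (6.17%) and 828 lower (7.16%) in all 4 pairs. In CCR2low macrophages the counts were 1037 (8.97%) and 1007 (8.71%). The difference of differences was tested by edgeR for each gene, and 0 of 11566 passed an adjusted p of 0.05 for monocytes minus CCR2high (0%) or for monocytes minus CCR2low (0%). At an unadjusted p below 0.05 the counts were 267 and 388 of the 11566 genes. Both are below the share that this threshold gives when nothing differs. DESeq2 called 1 gene against CCR2high, the segment Ighv1-80, and 2 against CCR2low, the segment Ighv5-9-1 and Prg2. By edgeR, no gene can therefore be called particular to monocytes.

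The lists read as follows in the 3 populations, without a test. Ly6C-high monocyte genes had a median log2 fold change of -1.06 in monocytes, -0.09 in CCR2high and 0.01 in CCR2low macrophages. Interferon-stimulated genes stood at -0.60, -0.12 and 0.15, and Toll-like receptor and NF-kB genes at -0.71, -0.05 and 0.08. Macrophage maturation genes stood at 0.37, 0.26 and 0.15 and cell cycle genes at 0.54, 0.26 and 0.19, with the same sign in each population. Lipid-associated genes stood at 0.05, 0.28 and 0.42, and in macrophages 10 and 15 of the 23 were higher in all 4 pairs, against 4 in monocytes. For lysosomal genes the medians were 0.13, 0.23 and 0.18, with 19 of 40 members higher in all pairs of CCR2high macrophages.

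**Figure D5:**
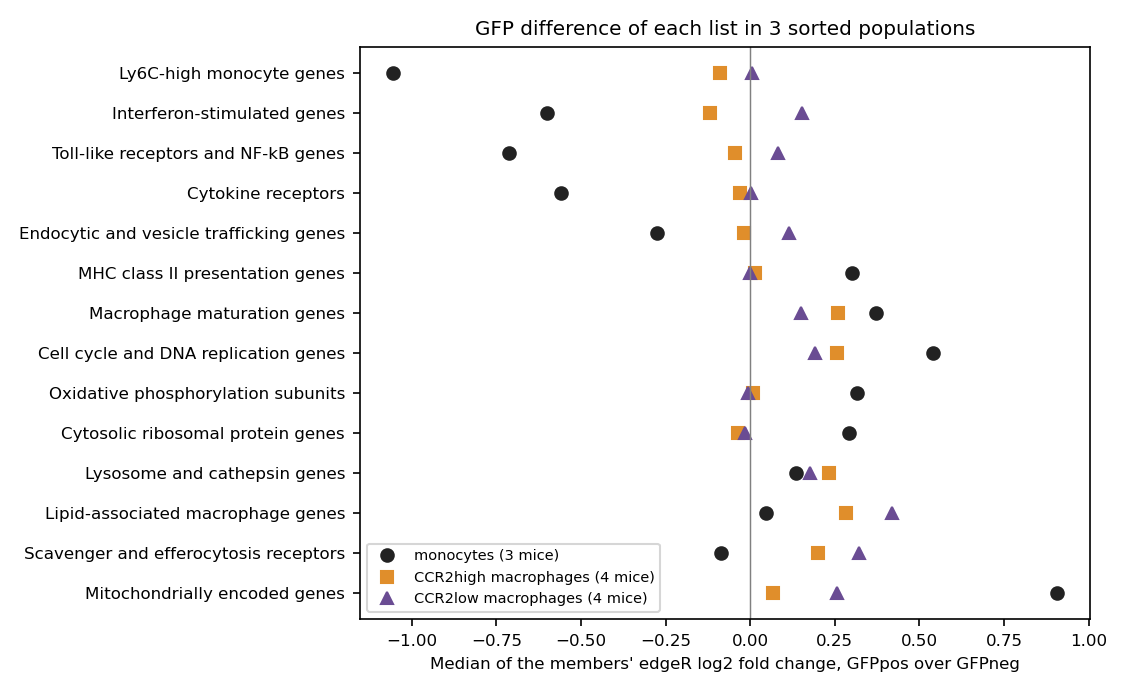
Median edgeR log2 fold change, GFPpos over GFPneg, of 14 gene lists in monocytes (black circles, 3 mice), CCR2high macrophages (orange squares, 4 mice) and CCR2low macrophages (purple triangles, 4 mice). Monocyte medians run from -1.06 to 0.91, while those of both macrophage populations stay between -0.12 and 0.42.

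Single genes showed the same range. Cd63 had a log2 fold change of 1.15 in monocytes, 0.50 in CCR2high and 0.39 in CCR2low macrophages, higher in each. Adgre4 was lower in all, at -2.10, -2.27 and -2.23. Ccr2 stood at -1.48, -0.86 and -0.17, and Hif1a at -1.75, -0.12 and 0.12. Slc29a1 stood at 1.46, -0.01 and 0.09, and Ccl8 at 1.47, 1.25 and 1.02.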

How the data were processed

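RNA of sorted cells was amplified with the SMARTer Ultra Low Input kit, spiked with ERCC RNA, tagmented with Nextera XT and sequenced as paired 75-bp reads. The authors aligned reads to mm10 with STAR, marked duplicates with Picard 1.8.4 and counted reads per gene with htseq-count on the Gencode annotation of GRCm38.p3, and the deposited values are raw counts. The strand setting is not given in the sources used here. Rows for reads without a feature (6.28% to 17.4% of a library's reads) and for ambiguous reads (1.58% to 1.9%) were left out, as were 92 spike-ins, leaving 45317 genes. Unused sample columns numbered 0. Of 30 libraries, 1 library of blood monocytes had fewer than 6000 genes with at least 5 reads and was left out, and repeat libraries were summed, giving 28 replicates.

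Counts were fitted with edgeR 4.0.16 in R 4.3.3 (TMM, filterByExpr, robust quasi-likelihood, Benjamini-Hochberg adjustment at 0.05) in a single fit over all 8 populations without a block. DESeq2 1.42.0 without a prior was an alternative. An SE is the size of edgeR's log2 fold change over the square root of its F statistic. It comes from the unpaired fit over all populations and is not the spread of the pair differences. Pair differences are log2 CPM with a prior count of 2, within a mouse. The fits were tested on simulated data. Both populations came from the same mice, and their deviations from the group means correlated within each mouse (r = 0.159, 0.29 and 0.46 over 11566 genes). Between mice r was -0.387 to 0.0886. Because each mean is over 3 mice, positive values within mice force lower values between mice. The second range is therefore no separate evidence.

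Named genes are those called by any of the fits, the 12 in each direction with the largest smallest pair difference at a mean of at least 10 CPM, up to 4 per list by the same measure, the genes of the sort, and markers that move with the groups. Slfn5 is named for its promoter. The 44 lists (1046 members, 8 matched by an older symbol) and the members were chosen with earlier results of these data known. Positions are from GENCODE on GRCm38 and cover 96.1% of genes tested. Alternatives were other scalings, filters and sample sets, the mouse as a block, each library of GFPpos mouse 22 alone, and leaving out replicates.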

Additional observations from a re-analysis of the deposited data

Results flagged for a closer look

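Among the named genes, 14 had every monocyte pair moving in one direction and all 4 macrophage pairs moving in the opposite one. The difference of differences (monocytes minus macrophages, log2) was tested by edgeR's quasi-likelihood test, and the adjusted p was 1 for each. Against CCR2high macrophages it was 2.96 for Ankrd24, 1.08 for Hspe1 and 0.722 for Rps27l, which were higher in GFPpos monocytes. It was -0.955 for the chemokine Ccl6 and -0.987 for the glycolytic enzyme Pgam1, which were lower.

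Against CCR2low macrophages the difference was 3.34 for Alox5, the 5-lipoxygenase of leukotriene synthesis, and 2.4 for Tanc2. It was negative for the rest: -0.696 for Anxa2, -1.33 for Dock1, -0.747 for Fcgr1, -1.5 for Nos2, -3.01 for Papss2, -0.988 for Pgam1, -1.68 for Tlr8 and -3.21 for Vcan. The Alox5 value of mouse 22 was 72.6 CPM in the first and 3.95 CPM in the second GFPpos library. Over all genes, 106 were higher in all monocyte pairs and lower in all CCR2high pairs and 79 the reverse, while 191 were higher in both and 188 lower in both. For CCR2low macrophages these counts were 123, 126, 232 and 191.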

How the results depend on the processing

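The count of genes called by edgeR between GFPpos and GFPneg monocytes was 0 under both other scalings, both filters, the smaller sample set, the replicate block and either library of GFPpos mouse 22 alone. It ranged from 0 to 1 when a replicate was left out, the 1 gene being Cdc14a without GFPpos mouse 26. DESeq2 called 19 genes, and 1 and 2 genes for the differences from CCR2high and CCR2low macrophages. The replicate block also gave 0 calls in these, and it changed no other call. The number of genes higher in all pairs was 34 with spike-in scaling, 2840 of 22327 with at least 1 count in any library, 878 of 4379 with at least 10 in every library, and 1037 of 11502 with the first library of GFPpos mouse 22 alone. The number lower was 8412 when scaled to spike-ins and 924 when at least 10 counts were asked of every library. With a mouse left out, 2854 to 3263 genes were higher and 3212 to 3357 lower, since only 2 pairs then had to match. Of the log2 fold changes of 158 named genes, 2422 values under the alternatives kept direction and side of the threshold and 19 passed it newly. For spike-in scaling these values were first taken relative to the median of all genes (log2 fold change -1.37). A turn to lower by that shift alone was therefore not counted. The 19 are the DESeq2 calls by which those genes came to be named. Most other named genes were chosen because their pairs agreed, so these counts are no separate evidence of steadiness. The 11 values that turned direction were Adgre1 (-0.1584 with spike-in scaling, -0.1305 with the first library alone), Fpr1 (-0.331 with the first library alone) and 8 that left out a replicate. Over the replicates left out, the range was -0.1247 to 0.6182 for Fpr1, turned without GFPneg mouse 24. It was -1.891 to 0.4815 for Dock1, -0.9654 to 0.0901 for Itgam, -1.541 to 0.04129 for Nos2, -2.9 to 0.5485 for Ptgs2 and -4.543 to 0.5248 for Thbs1, all turned without GFPneg mouse 26. It was -0.01949 to 0.8472 for Odc1 and -0.591 to 3.192 for Plat, turned without GFPpos mouse 26. The cause was not tested. With 3 mice and unequal library quality, a difference that missed the threshold is not shown to be absent.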
